A study of Schizosaccharomyces pombe with 24 samples.

Results

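The strains compared here, 5 fission yeast strains with an amino acid change in histone H2B fall into 2 sets that differ in the RNA of the H2B gene itself, *htb1*. The 9 libraries of *htb1-D67N*, *htb1-E75Q* and *htb1-E112K*, whose mean *htb1* RNA was over 5-fold that of WT, were set against the 6 libraries of *htb1-G52D* and *htb1-P102L*, whose *htb1* RNA was near that of WT. These are 15 of the 24 libraries and 5 of the 8 genotypes of the series, with 3 libraries per genotype. The sets were chosen from the measured *htb1* RNA, so *htb1* is described without a test and was left out of every count of genes below. They are called the high-*htb1* set and the near-WT set.

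The study sequenced poly(A) RNA of 6 *Schizosaccharomyces pombe* strains that carry H2B changes found in human cancers, a WT strain and libraries labelled as a *set1* deletion. Its strain list gives the *htb1-D67N*, *htb1-E75Q* and *htb1-E112K* strains as h+ ade6-M210 leu1-32 ura4-D18, with a kanMX6 cassette marking the *htb1* allele. It gives *htb1-G52D* and *htb1-P102L* as h- leu1-32 ura4-D18 with an unknown *ade6* allele and no cassette. The sixth mutant, *htb1-E34K*, has the listed background and cassette of the first 3 strains and *htb1* RNA near WT, and it is shown beside both sets. The set therefore coincides with the listed mating type, the *ade6* entry and the cassette, and differences between the sets cannot be told apart from these.

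Histone H2B pairs with H2A, and H2A-H2B dimers join an H3-H4 tetramer to form the nucleosome core. *S. pombe* has a single H2B gene, which lies head to head with the H2A gene *hta1*, whereas H2A, H3 and H4 are each made from more than one gene. Histone RNA peaks in S phase, when newly copied DNA is packed, and H2B is also the target of a monoubiquitin mark that is linked to transcription and DNA repair.

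Marker transcripts of the listed genotypes were uneven among the libraries. The genes *mat1-Mc* and *ura4* were used to look at this, because an h+ strain carries no M information at the expressed *mat1* locus and ura4-D18 is a deletion. Replicates 1 and 2 of *htb1-G52D* held 238 and 129 counts of *mat1-Mc* and those of *htb1-P102L* held 78 and 150, while replicate 3 of each held 0 counts. Replicate 1 of *htb1-G52D* held 1382 *ura4* counts and replicate 1 of *htb1-P102L* held 712, while the other 4 libraries of these 2 mutants held between 0 and 2. The 9 libraries of the high-*htb1* set held at most 1 count of either gene. WT replicate 3, listed as h+ ura4-D18, held 103 counts of *mat1-Mc* and 865 of *ura4*, against 0 in the other 2 WT libraries. WT enters no contrast here. It serves as the scale for *htb1*, which was 1081 CPM in that library, and its levels are shown beside the sets for some genes. The counts of genes called in every pair are given with and without the near-WT libraries that held *mat1-Mc* or *ura4* counts. For single genes, values without these libraries are given in some cases only. No such values are given for the tests with genotype as the replicate or for the contrasts of *htb1-E34K*, so their dependence on these libraries was not tested. Total counts ran from 18935513 to 27138609 per library.

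The *htb1* RNA that defined the sets had its lowest mean in *htb1-E112K* among the high mutants and its highest in *htb1-D67N*. In CPM (a gene's counts scaled to library size, with TMM factors over all 24 libraries), the *htb1-D67N* libraries had 12091, 11972 and 8142. The *htb1-E75Q* libraries had 9003, 5142 and 5517, and the *htb1-E112K* libraries had 6349, 4119 and 5891. The *htb1-G52D* libraries had 807, 1197 and 1148 CPM, those of *htb1-P102L* 1484, 1685 and 1487, and those of WT 914, 1017 and 1081. The 9 and the 6 libraries were apart by construction, and within the high set the range of *htb1-E75Q* overlapped those of the other 2 mutants, which did not overlap each other. Mean levels were 10.7, 6.53 and 5.43 times the WT mean in *htb1-D67N*, *htb1-E75Q* and *htb1-E112K*. They were 1.05 times in *htb1-G52D* and 1.55 times in *htb1-P102L*, so *htb1-E112K* and *htb1-P102L* stand nearest the threshold on either side. The threshold was passed by the genotype mean and not by each library, since *htb1-E112K* replicate 2 was at 4.10 times the WT mean. The 3 *htb1-E34K* libraries had 677, 1086 and 1231 CPM.

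Per unit of length, *htb1* RNA was also out of proportion to that of its divergent partner. The ratio of *htb1* to *hta1* in the deposited FPKM (fragments scaled by transcript length and library size) ranged from 9.76 to 27.6 over the 9 libraries of the high-*htb1* set. It ranged from 2.89 to 4.26 over the 6 libraries of the near-WT set and from 2.15 to 2.48 in WT. The gene took 0.338% to 1.13% of all counts in the 9 libraries and 0.116% to 0.175% in the 6.

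**Figure D1:**
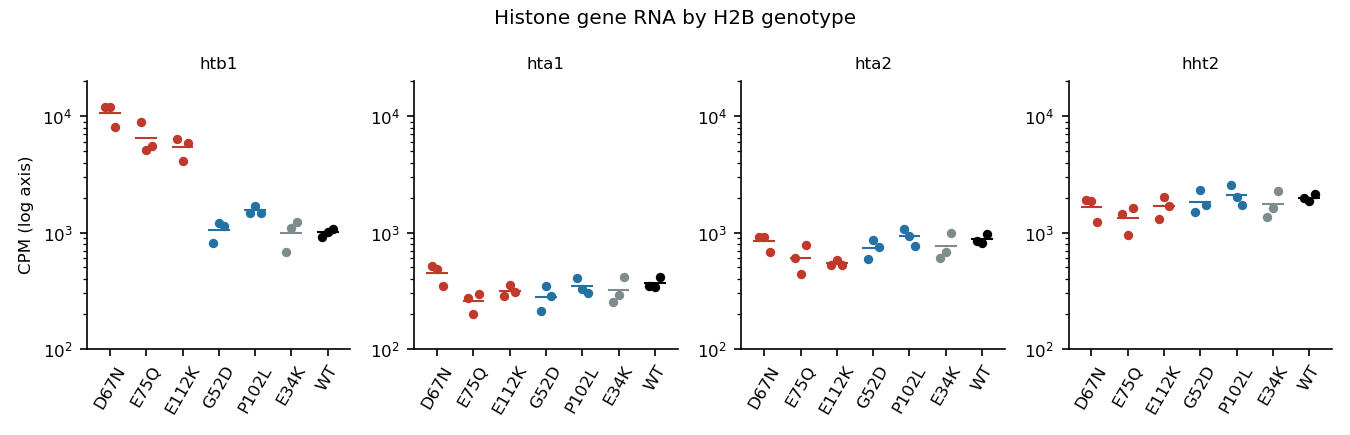
RNA of *htb1*, *hta1*, *hta2* and *hht2* in each library, in CPM on a log axis, by H2B genotype. Points are the 3 libraries of a genotype and lines their means, with the high-*htb1* set in red, the near-WT set in blue, *htb1-E34K* in grey and WT in black. The *htb1* points of the red genotypes start at 4119 CPM while the blue ones end at 1685 CPM, and the points of the other 3 genes overlap between the sets.

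None of the other 10 histone genes tested moved with *htb1*. A gene was called where the edgeR quasi-likelihood test gave an adjusted p below 0.05 and the log2 fold change was at least 1 in size. By this rule 199 of 5011 genes (3.97%) were called between the sets, 96 higher (1.92%) and 103 lower (2.06%) in the high-*htb1* set. Of the 10 histone genes 0 were called, their log2 fold changes lay between -0.35 and 0.09 and their median was -0.17, beside -0.01 over all genes. At an adjusted p below 0.05 alone, also 0 of the 10 passed.

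The H2A gene *hta1* had 515, 490 and 348 CPM in *htb1-D67N*, 271, 201 and 294 in *htb1-E75Q* and 282, 350 and 306 in *htb1-E112K*. The *htb1-G52D* libraries had 211, 344 and 284 CPM and those of *htb1-P102L* 405, 328 and 299. The sets overlapped over most of their range, and the log2 fold change of *hta1* was 0.09 (SE 0.14, adjusted p = 0.73). The second H2A gene, *hta2*, ranged from 443.5 to 920.5 CPM in the high-*htb1* set (median 599) and from 589 to 1064 in the near-WT set (median 821), with a log2 fold change of -0.34 (SE 0.15, adjusted p = 0.12). The widest shifts among the H3 and H4 genes were those of *hht2* and *hhf2*, at -0.34 and -0.35 on the log2 scale, and they did not pass the test. The H2A.Z gene *pht1* and the centromeric H3 gene *cnp1* had log2 fold changes of -0.09 and -0.22, which also did not pass.

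The genes next to *htb1* gave no call in either direction. The next gene downstream, *sec5*, which encodes an exocyst subunit, overlaps the 3' end of *htb1* on the other strand in the ASM294v3 gene table. Its level ranged from 39.1 to 78.1 CPM (median 57.65) in the high-*htb1* set and from 41.1 to 66.6 CPM (median 48.2) in the near-WT set, with a log2 fold change of 0.24 (SE 0.13, adjusted p = 0.24). Strand use in the counting is not given in the sources used here, so reads of the overlap cannot be assigned to one of the genes. The third gene downstream, *gdh1*, a glutamate dehydrogenase gene, had a log2 fold change of -0.35 (SE 0.21, adjusted p = 0.27). Between them, SPCC622.11, which encodes an LMBR1-like membrane protein, had 5.36, 6.03 and 10.96 CPM in *htb1-D67N*, against 8.45, 7.21 and 6.49 in *htb1-E112K*. It had 52.3, 31.8 and 21.2 CPM in *htb1-E75Q*, and from 14.5 to 28.9 CPM in the 6 libraries of the near-WT set. *htb1-E75Q* thus lay apart from the rest of its own set, and the log2 fold change of SPCC622.11 was -0.84 (SE 0.20, adjusted p = 0.0058), short of the fold threshold. On the other side of *hta1*, SPCC622.07 and SPCC622.06c, both annotated as dubious, had at most 1.52 CPM in any of the 15 libraries and log2 fold changes of 0.29 and -0.03 that did not pass.

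With genotype as the unit, few genes followed the sets. Each of the 3 high-*htb1* mutants was compared with each of the 2 near-WT mutants in the same edgeR fit, and 9 genes were called the same way in all 6 of these pairs. Higher in every pair were 4 of 5011 genes (0.0798%), namely *pfl7*, SPBPB10D8.02c, SPBPB10D8.01 and SPAC922.06. Lower in every pair were 5 of 5011 (0.0998%), namely *mat1-Mc*, *mat3-Mc*, *mfm2*, SPBC23G7.10c and SPAC959.06c. The 6 pairs share genotypes and are not independent of each other. Taken singly, the pairs of *htb1-D67N* called 4.11% higher and 5.67% lower against *htb1-G52D*, and 4.73% and 5.49% against *htb1-P102L*. Those of *htb1-E75Q* called 1.24% and 2.27%, then 2.67% and 2.67%, and those of *htb1-E112K* 4.93% and 7.1%, then 4.75% and 5.79%. When each of the 15 libraries was left out in turn, SPBPB10D8.02c, SPBPB10D8.01, *mat3-Mc* and SPBC23G7.10c kept their call in every pair in all 15 fits. The call of *pfl7* was lost without *htb1-P102L* replicate 2, and that of SPAC922.06 without *htb1-E75Q* replicate 3, *htb1-G52D* replicate 2 or *htb1-G52D* replicate 3. That of SPAC959.06c was lost in 9 of the 15 fits, that of *mfm2* in 12 and that of *mat1-Mc* in 13, where the fits that kept *mat1-Mc* left out replicate 3 of *htb1-G52D* or of *htb1-P102L*. Under total-count scaling the calls in every pair were those of SPBPB10D8.02c, *mat3-Mc*, *mfm2* and SPBC23G7.10c. The genes *mat1-Mc*, *mat3-Mc* and SPAC922.06 had almost no counts in 1 set and passed the low-count filter through the other. With at least 10 counts required in every library, the calls in every pair were those of SPBPB10D8.02c and SPBC23G7.10c. Without the 4 libraries with *mat1-Mc* counts, which leaves 1 library of each near-WT mutant, *pfl7* and SPBPB10D8.01 lost their call in every pair. By another count that ignores the fold, the 9 and the 6 libraries did not overlap in CPM for 26 genes higher (0.519%) and 41 genes lower (0.818%) in the high-*htb1* set.

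The gene *pfl7* encodes a predicted cell surface glycoprotein of the DIPSY family, annotated to flocculation. It had 2.89, 2.71 and 2.34 CPM in *htb1-D67N*, 1.12, 1.55 and 1.78 in *htb1-E75Q* and 9.29, 9.17 and 9.53 in *htb1-E112K*. The near-WT set ranged from 0.378 to 0.786 CPM. All 9 libraries stood above all 6, with *htb1-E112K* well above the other mutants and *htb1-E75Q* closest to the near-WT set. Between the sets *pfl7* had a log2 fold change of 2.53 (SE 0.21, adjusted p = 5.0e-07).

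SPBPB10D8.02c, a predicted arylsulfatase gene, had 11.9, 10.3 and 12.14 CPM in *htb1-D67N*, 16.9, 9.09 and 16.0 in *htb1-E75Q* and 18.5, 18.7 and 19.3 in *htb1-E112K*. The *htb1-G52D* libraries had 2.01, 1.36 and 2.06 CPM and those of *htb1-P102L* 1.91, 3.70 and 3.74. The sets were far apart in every library, and the log2 fold change was 2.58 (SE 0.18, adjusted p = 9.8e-08). Its convergent neighbour SPBPB10D8.01, a predicted cysteine transporter gene, ranged from 1.09 to 5.94 CPM (median 3.60) in the 9 libraries and from 0.291 to 0.562 CPM (median 0.442) in the 6. For SPBPB10D8.01 the log2 fold change was 2.84 (SE 0.26, adjusted p = 1.1e-06). The pair overlaps at the 3' ends on opposite strands, so the 2 calls may share reads and are not 2 separate observations. WT does not enter the contrast, and its levels were uneven, with 12.87, 13.97 and 2.76 CPM of SPBPB10D8.02c and 4.68, 6.80 and 2.91 CPM of *pfl7*. Replicates 1 and 2 of WT thus lay within the range of the high-*htb1* set for both genes, above the near-WT mutants. Replicate 3 of WT did so for *pfl7* as well, but for SPBPB10D8.02c it lay within the near-WT range.

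SPAC922.06, a predicted 3-oxoacyl-[acyl-carrier-protein] reductase gene, held 212, 229 and 284 counts in *htb1-D67N*, 40, 48 and 134 in *htb1-E75Q* and 471, 336 and 353 in *htb1-E112K*. In the near-WT set it held 29 counts in *htb1-G52D* replicate 1 and 0 counts in the other 5 libraries. *htb1-E75Q* replicate 2 was the lowest of the 9, at 1.65 CPM against 0.844 CPM in that *htb1-G52D* library. Beyond the sets the gene was also uneven, with 0, 0 and 95 counts in *htb1-E34K* and between 80 and 195 in WT.

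The genes that were lower in every pair were in part mating-type genes. The *mat1-Mc* gene encodes the HMG-box transcription factor that specifies the M mating type, *mat3-Mc* is its near-identical copy at the silent *mat3* cassette, and *mfm2* encodes a precursor of the M-factor pheromone. Over the 9 libraries of the high-*htb1* set *mat1-Mc* held 1 count in all, while over the 6 libraries of the near-WT set it held 595, all in the 4 libraries named above. For *mat3-Mc* the sums were 1 and 394 counts, divided as 120, 114 and 20 among the *htb1-G52D* libraries and 52, 87 and 1 among those of *htb1-P102L*. Because the copies share their sequence, counts of *mat1-Mc* and *mat3-Mc* are uncertain as to the copy, and in bulk RNA fewer expressing cells and less RNA per cell cannot be told apart. The level of *mfm2* was at most 0.816 CPM in the 9 libraries, 7.42 and 5.82 CPM in replicates 1 and 2 of *htb1-G52D*, and 8.91 and 10.6 CPM in replicates 1 and 2 of *htb1-P102L*, but 0.187 and 0.144 CPM in replicate 3 of each. These low replicates lay within the range of the high-*htb1* set for *mat1-Mc* and *mfm2*. Without the 4 libraries that hold *mat1-Mc* counts, *mfm2* had a log2 fold change of 0.54. That fit leaves 1 library of each near-WT mutant, assumed to vary like the other genotypes, and it called 0 genes lower in every pair.

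SPBC23G7.10c, a predicted NADH-dependent flavin oxidoreductase gene, is the next protein-coding gene after *mat1-Mc* in the gene table. It ranged from 1.03 to 3.67 CPM (median 1.51) in the high-*htb1* set. The *htb1-G52D* libraries had 19.6, 30.8 and 8.95 CPM and those of *htb1-P102L* 21.8, 17.1 and 4.99. The lowest of the 6 was above the highest of the 9, and replicate 3 of each near-WT mutant, which held no *mat1-Mc* count, was the lowest of its genotype. WT, which does not enter the contrast, ran from 1.13 to 30.4 CPM (mean 10.9, SD 16.9) and so reached the levels of both sets. Its log2 fold change was -3.38 (SE 0.32, adjusted p = 1.4e-06), and -2.04 (adjusted p = 0.0022) without the 4 libraries with *mat1-Mc* counts. SPAC959.06c, annotated only as a conserved fungal protein, ranged from 0.375 to 0.889 CPM (median 0.494) in the high-*htb1* set and from 1.11 to 1.85 CPM (median 1.64) in the near-WT set. Its log2 fold change was -1.45 (SE 0.26, adjusted p = 0.00062), on low counts of between 7 and 53 per library, and -1.30 (adjusted p = 0.10) without those 4 libraries.

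**Figure D2:**
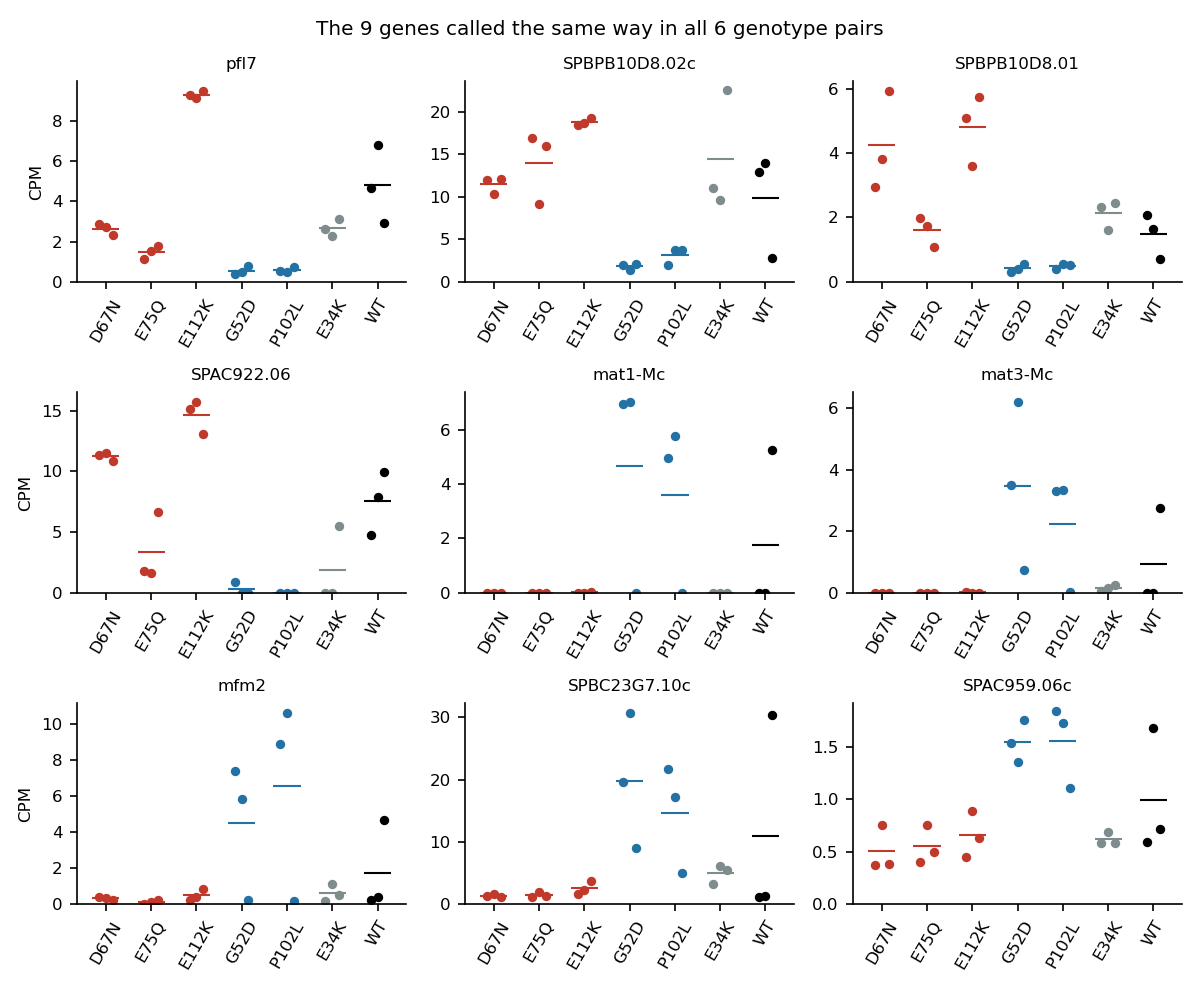
CPM in each library, by H2B genotype, of the 9 genes called the same way in all 6 pairs. Points are libraries and lines genotype means, with the high-*htb1* set in red, the near-WT set in blue, *htb1-E34K* in grey and WT in black. The grey points lie with the red ones for most of these genes, but 2 of 3 are at 0 for SPAC922.06, and the blue points of *mat1-Mc* and *mfm2* split into 4 high and 2 low libraries.

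The *htb1-E34K* mutant has *htb1* RNA near WT. Against *htb1-G52D* and *htb1-P102L* it was called in the direction of the high-*htb1* set for 9 of 9 genes, where 316 of 5022 genes (6.29%) were called in all, 1.81% higher and 4.48% lower. Against the high-*htb1* set it was called for 1 of 9, SPBC23G7.10c, where 328 of 5022 genes (6.53%) were called, 2.43% higher and 4.1% lower. These contrasts share libraries with the comparison of the sets and are given as values only. The 9 genes were chosen because the same near-WT libraries differed from the high-*htb1* set. The 9 of 9 was therefore favoured in advance and is not to be read against the 6.29%. In *htb1-E34K*, *pfl7* had 2.62, 2.25 and 3.14 CPM, SPBPB10D8.02c 11.02, 9.635 and 22.5 CPM and SPBPB10D8.01 2.31, 1.60 and 2.44 CPM. Each of these values lay within the range of the high-*htb1* libraries or above it. The log2 difference of *htb1-E34K* from the high-*htb1* set was -0.01 (SE 0.24) for SPBPB10D8.02c and -0.32 (SE 0.23) for *pfl7*. The SPAC922.06 call rested on replicate 3 of *htb1-E34K*, with 95 counts, since the other 2 libraries were at 0 counts like most of the near-WT set. For *mat1-Mc* all 3 *htb1-E34K* libraries were at 0 counts. SPBC23G7.10c had 3.20, 6.04 and 5.35 CPM in *htb1-E34K*, between the sets, 1.58 above the high-*htb1* set (SE 0.38, adjusted p = 0.0061) and 1.80 below the near-WT set on the log2 scale (log2 difference -1.80, SE 0.44, adjusted p = 0.0072). When *htb1-E34K* was put with the near-WT mutants, giving 9 pairs, 0 genes were called higher and 0 lower in every pair.

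Genotype was then used as the replicate, with counts summed over the 3 libraries of a genotype and 3 sums set against 2. The edgeR test called 0 of 5064 genes higher (0%) and 4 lower (0.079%), namely *ura4*, *mat1-Mc*, *mat3-Mc* and SPBC23G7.10c. The *ura4* call rests on replicate 1 of *htb1-G52D* and of *htb1-P102L*, and 200 genes had an unadjusted p under 0.05. Genes called between the sets but not by this edgeR test included SPBPB10D8.02c (adjusted p = 0.19), *osh3* (adjusted p = 0.80) and *pfl7* (unadjusted p = 0.0083). The genes *ura4*, *mat1-Mc* and *mat3-Mc* held 1 count each over the high-*htb1* libraries and passed the low-count filter through the near-WT set. With at least 10 counts required in every genotype sum, 0 genes were called higher and 0 lower. DESeq2 on the same sums called 6 higher and 10 lower. A limma model with genotype as a random block called 1 gene higher, SPBPB10D8.02c (adjusted p = 0.0086), and 1 lower, *osh3* (adjusted p = 0.024), with 399 genes at an unadjusted p under 0.05. For a single gene, an exact permutation of 3 genotypes against 2 cannot give a two-sided p below 0.1.

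The sets were not the main division among the 5 genotypes. Within the high-*htb1* set, *htb1-D67N* and *htb1-E112K* differed in 172 of 5011 genes (3.43%), whereas *htb1-E75Q* differed from *htb1-D67N* in 632 (12.6%) and from *htb1-E112K* in 717 (14.3%). Across the sets, *htb1-E75Q* differed from *htb1-G52D* in 176 genes (3.51%) and from *htb1-P102L* in 268 (5.35%). The 2 pairs of *htb1-D67N* with the near-WT mutants gave 490 (9.78%) and 512 (10.2%) called genes, and those of *htb1-E112K* gave 603 (12%) and 528 (10.5%). *htb1-G52D* and *htb1-P102L*, of the same set, differed in 332 genes (6.63%). On the first principal component of log2(CPM + 1) over these 15 libraries, which held 36.7% of the variance with *htb1* left out, the *htb1-D67N* and *htb1-E112K* libraries scored between -25.1 and -14.4. The *htb1-E75Q* libraries scored 14.3 or more, on the same side as the near-WT set, which scored between 8.33 and 20.9.

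**Figure D3:**
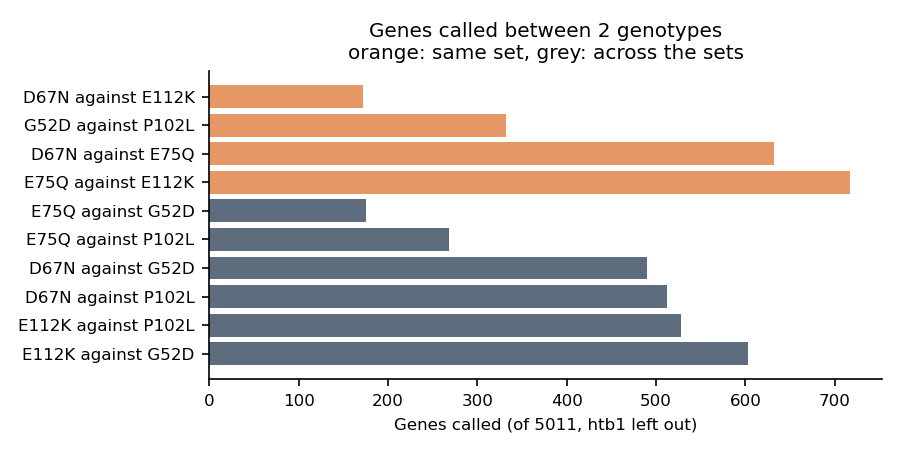
Number of genes called between each 2 of the 5 genotypes, of 5011 tested, with *htb1* left out. Orange bars are pairs within a set and grey bars pairs across the sets. The *htb1-E75Q* and *htb1-G52D* pair (176 genes) is about as short as the *htb1-D67N* and *htb1-E112K* pair (172), and the 2 longest bars (632 and 717) are pairs of *htb1-E75Q* within its own set.

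Of the 3 high-*htb1* mutants, *htb1-E75Q* carried the fewest of the genes called between the sets. Of the 96 genes called higher, 38 were called in all 4 pairs of these 2 mutants and in neither pair of *htb1-E75Q*, and of the 103 called lower, 46 were. Only 7 of the 96 and 7 of the 103 were called in both pairs of *htb1-E75Q*. Among the 3 high-*htb1* mutants, *htb1-E75Q* had the mean nearest to the near-WT set for 81 of the 96 genes and for 78 of the 103. The genotype means did not overlap between the sets for 41 of the 96 and 50 of the 103, beside 451 (9%) higher and 405 (8.08%) lower over all 5011 genes tested. The called genes were chosen by a contrast of these same libraries, so a larger share among them was built in. Without *htb1-E75Q*, the 4 remaining pairs called 57 genes higher and 81 lower in every pair. Without *htb1-D67N* the counts were 6 and 5, and without *htb1-E112K* 4 and 4.

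**Figure D4:**
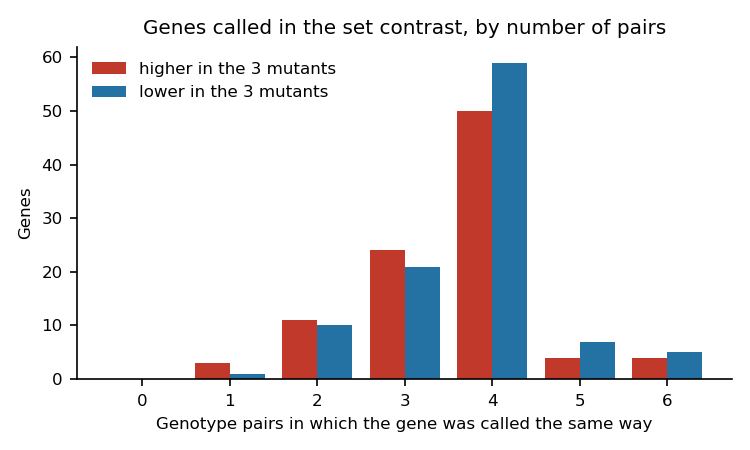
Genes called between the sets, by the number of the 6 genotype pairs in which each was also called the same way. Red bars are genes higher and blue bars genes lower in the high-*htb1* set. Both directions peak at 4 pairs, with 50 and 59 genes, and end with 4 and 5 genes at 6 pairs.

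A pair of genes, singled out after their values were seen, shows how a call in 5 pairs looked. The meiotic recombination gene *rec10* had 1.93, 2.46 and 1.46 CPM in *htb1-D67N*, 2.25, 3.32 and 3.04 in *htb1-E112K* and 7.83, 10.9 and 5.39 in *htb1-E75Q*, against 11.3 to 22.6 in the near-WT set. The log2 fold change of *rec10* was -2.09 (SE 0.17, adjusted p = 5.2e-07), and *htb1-E34K* had 14.5, 17.7 and 5.002 CPM. The sterol-binding protein gene *osh3* ranged from 25.6 to 47.2 CPM in the high-*htb1* set (median 31.0) and from 59.1 to 103 in the near-WT set (median 90.2). The libraries of the sets did not overlap for either gene. The log2 fold change of *osh3* was -1.37 (SE 0.11, adjusted p = 5.0e-07), and *htb1-E34K*, with 43.8, 27.7 and 24.6 CPM, lay with the high-*htb1* set.

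Genes that handle histones or modify H2B gave 0 calls between the sets, beside 3.97% called over all genes. At that share, lists this short can hold 0 calls without differing from other genes. Of 17 tested regulators and chaperones of histones, 0 were called and their median log2 fold change was 0.16. The list includes the GATA factor *ams2*, an S-phase activator of histone genes, at 0.42 (SE 0.17, adjusted p = 0.10) and the HIRA subunit *slm9* at 0.58 (SE 0.11, adjusted p = 0.0011), which missed the fold threshold. The *slm9* libraries did not overlap, with 8.415 to 13.6 CPM in the high-*htb1* set and 5.545 to 8.21 CPM in the near-WT set. Of 8 tested genes for H2B ubiquitination or its removal, 0 were called. The E2 enzyme gene *rhp6* had a log2 fold change of -0.17 (SE 0.08), the E3 ligase genes *brl1* and *brl2* 0.55 (SE 0.18) and -0.11 (SE 0.27), and the SAGA deubiquitinase gene *ubp8* 0.19 (SE 0.11). The widest shift in the list was that of *shf1*, a small subunit of the same ligase complex, at -1.27 (SE 1.22, adjusted p = 0.53). It held 0 counts in every *htb1-D67N* library, 29, 0 and 0 in *htb1-E75Q* and 55, 40 and 21 in *htb1-E112K*, while *htb1-G52D* held 4, 0 and 0 and *htb1-P102L* 43, 71 and 47, so each set held both levels. The gene of the deubiquitination module subunit *sgf73* was at -0.82 (SE 0.12, adjusted p = 0.00013), with 3.48, 3.67 and 3.18 CPM in *htb1-D67N* against 7.77 to 10.96 CPM in the near-WT set, but up to 8.405 CPM in *htb1-E75Q*, within that range. Of 10 tested genes whose products restrain antisense or cryptic transcription, such as the H3K36 methyltransferase gene *set2*, 0 were called.

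Among genes for nutrient uptake, those for iron had the largest share of calls. Of 10 tested iron acquisition genes 4 were called higher and 0 lower, against 3.97% over all genes, and their median log2 fold change was 0.78. Called were the siderophore transporter genes *str1* and *str3* and the genes of the reductive uptake partners *fip1*, the permease, and *fio1*, the multicopper oxidase. For *str1* the *htb1-D67N* libraries had 49.1, 47.3 and 50.5 CPM and those of *htb1-E112K* 30.3, 52.55 and 73.4. The *htb1-E75Q* libraries had 111, 6.03 and 5.69 CPM, and the near-WT set ranged from 8.023 to 12.8. Replicates of *htb1-E75Q* thus stood on both sides of the near-WT set. The same library, *htb1-E75Q* replicate 1, was high in *fip1*, with 126 CPM against 4.86 and 7.22 in the other 2, and in *fio1*, with 40.1 against 3.24 and 3.76. Log2 fold changes were 2.18 for *str1* (SE 0.51, adjusted p = 0.0051), 1.96 for *str3* (SE 0.51, adjusted p = 0.011), 1.68 for *fip1* (SE 0.54, adjusted p = 0.034) and 1.24 for *fio1* (SE 0.42, adjusted p = 0.049). Without *htb1-E75Q* replicate 1 the values were 0.70 for *fip1* (adjusted p = 0.051), 0.51 for *fio1* (adjusted p = 0.074) and 1.74 for *str3* (adjusted p = 0.062), and the 3 calls were lost. The *fip1* and *fio1* calls were also lost in 9 other leave-one-out fits each.

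Of 8 tested genes listed for hexose and gluconate transport, *ght3* and *ght7* were called higher (25%, beside 3.97% over all genes) and 0 lower, and the median log2 fold change of the list was 0.43. The *ght3* gene had 7.765, 7.04 and 10.6 CPM in *htb1-D67N*, 5.53, 3.93 and 5.52 in *htb1-E112K* and 1.70, 1.24 and 0.198 in *htb1-E75Q*. The near-WT set ranged from 0.204 to 0.970 CPM and *htb1-E34K* from 0.1745 to 0.385. The change of *ght3* on the log2 scale was 2.9 (SE 0.32, adjusted p = 8.7e-06), and it was called in 5 of the 6 pairs. The *ght7* call rested on *htb1-E112K*, with 10.5, 10.9 and 9.86 CPM against 0.0989 to 2.36 in the rest of its set. Its log2 fold change was 1.63 (SE 0.26, adjusted p = 0.00022), and 0.42 (adjusted p = 0.50) without *htb1-E112K*. By contrast, *ght1*, *ght2* and *ght4*, which were not called, had their highest mean among the 3 high mutants in *htb1-E75Q*. Of 5 phosphate acquisition genes 1 was called (20%, beside 3.97% over all genes), *pho84*, the phosphate permease gene, higher at 1.09 (SE 0.18, adjusted p = 0.00042). Its level was 195 to 211.5 CPM in *htb1-D67N* and, in *htb1-E112K*, 329.7 to 387.5 CPM, but 17.5 to 46.3 in *htb1-E75Q*, below every *htb1-P102L* library at 92.5 to 154. The log2 fold change of *pho84* was 0.96 without *htb1-E75Q* replicate 1 and 0.11 without *htb1-G52D*.

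**Figure D5:**
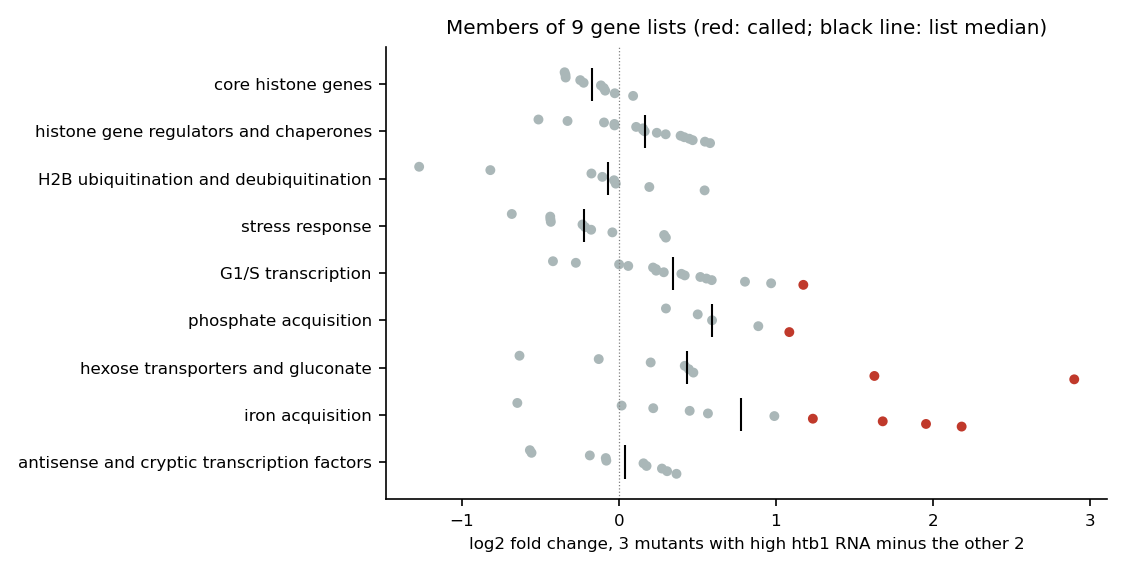
Log2 fold change between the sets of each tested gene in 9 lists, by list. Red points are called genes, grey points are not called, and black lines are list medians. The 10 histone genes lie between -0.35 and 0.09, and the red points are in the lists for iron, hexose and gluconate, phosphate and G1/S genes.

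Of 16 tested G1/S genes 1 was called (6.25%, near the 3.97% over all genes), the replication licensing gene *cdt1*, higher at 1.17 (SE 0.19, adjusted p = 0.00021). It had 3.43, 4.57 and 5.82 CPM in *htb1-D67N* and 2.15 to 2.89 in the other 2 high mutants, against 1.02 to 1.80 in the near-WT set, with no overlap. The ribonucleotide reductase gene *cdc22* had a log2 fold change of 0.97 (SE 0.20, adjusted p = 0.0020) but 59.6 to 126 CPM in *htb1-E75Q*, within the near-WT range of 78.35 to 343 or below it. Of 17 tested mating genes 5 were called (29.4%, beside 3.97% over all genes), *mat1-Mc* and *mfm2* lower and 3 higher. The sets differ in listed mating type, so this share cannot be told apart from that difference. The *mat1-Mc* gene passed the low-count filter through the near-WT set, and *mfm2* changed sign, to 0.54, without the 4 libraries with *mat1-Mc* counts. The meiosis and mating regulator *ste11* had 28.04 to 58.05 CPM (median 44.1) against 15.1 to 28.3 (median 19.8), overlapping by 1 library of each set, a log2 fold change of 1.04 (SE 0.13, adjusted p = 1.8e-05). The MADS-box factor gene *map1* had 1.63 to 3.18 CPM (median 2.20) against 0.2996 to 1.40 (median 0.8496), with no overlap, and a log2 fold change of 1.62 (SE 0.21, adjusted p = 2.8e-05). The receptor gene *map3*, whose product is the M-factor receptor of P cells, was at 1.19 (SE 0.24, adjusted p = 0.0015), with 3.92 CPM in *htb1-P102L* replicate 3 against 0.924 to 1.70 in the other near-WT libraries. Without the 4 libraries with *mat1-Mc* counts, *map3* was at 0.62 and no longer called, and without the 2 with *ura4* counts it was at 0.997. In *htb1-E34K*, *map3* had 5.35, 13.45 and 3.61 CPM, while *ste11* at 23.8 to 28.4 CPM lay within the near-WT range or just above it. Leaving out *htb1-E75Q* replicate 1 or *htb1-P102L* replicate 1 each put *ste11* at 0.98, under the fold threshold.

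The remaining lists held few calls or none. Of 10 tested stress response genes 0 were called, beside 3.97% over all genes, and their median log2 fold change was -0.22. The catalase gene *ctt1* showed the division by mutant, at 326.5 to 535.5 CPM in *htb1-D67N*, at 308 to 376 in *htb1-E112K*, but at 1093 to 1607 in *htb1-E75Q*, above the near-WT range of 824 to 1019. Its log2 fold change between the sets was -0.68 (SE 0.14, adjusted p = 0.0015). Of 175 genes annotated to the ribosome in KEGG 1 was called (0.571%, below the 3.97% over all genes), *rps1401*, higher at 1.12 (SE 0.25, adjusted p = 0.0031). It had 450 to 787 CPM in *htb1-D67N* against 67 to 159.9 in *htb1-E75Q*, and was at 0.95 without *htb1-E75Q* replicate 3. Of 93 tested *mug* genes 3 were higher and 3 lower (6.45%, beside 3.97% over all genes). Of 10 tested Tf2 elements 0 were called, and of 3 galactose cluster genes 0 were called, beside the same 3.97%. Tf2 copies are nearly identical, so their counts are uncertain as to the copy.

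The genes with RNA most like *htb1* over the 15 libraries were ranked by Pearson r. The highest r of log2(CPM + 1) with *htb1* among 5011 genes was 0.91 for SPBC17D1.01, a predicted transcriptional regulator, followed by 0.89 for SPBC21C3.10c, a predicted riboflavin synthesis reductase, and 0.88 for SPBPB10D8.02c. These values describe 15 points from 5 genotypes in 2 sets, use the *htb1* levels that defined the sets, and carry no test. SPBC17D1.01 had 219 to 263 CPM in *htb1-D67N*, 188 to 219 in *htb1-E75Q* and 178.5 to 195 in *htb1-E112K*, against 144 to 184 in the near-WT set, with a log2 fold change of 0.35 (SE 0.09). SPBC21C3.10c ranged from 14.9 to 36.6 CPM in the high-*htb1* set and from 11.9 to 14.3 in the near-WT set, with a log2 fold change of 0.78 (SE 0.10). In *htb1-E34K* SPBC17D1.01 was at 103 to 122 CPM, below both sets, and SPBC21C3.10c at 21.8 to 44.8 CPM, within the high-*htb1* range or above it.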

How the data were processed

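Per the study's methods, poly(A) RNA from 3 independent biological repeats per genotype was sequenced, reads were filtered with fastp, rRNA reads were removed with Bowtie2, and the rest was mapped with HISAT2 to the Ensembl S. pombe genome. The submitters' notes also name StringTie, RSEM and DESeq2. The authors deposited whole-number counts and FPKM values per gene in 7 full tables, which were joined by gene identifier (5195 genes, 24 libraries). Columns of the authors' own fold changes and p-values, and the 7 filtered tables, were not used.

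The sets, lists and named genes were chosen with earlier results of these data known. Counts were tested with edgeR 4.0.16 (glmQLFit, glmQLFTest) in R 4.3.3 on 15 libraries with 1 term per genotype, TMM factors over all 24 libraries, and filterByExpr by genotype. The contrast was the mean of 3 genotypes minus the mean of 2, and p-values were Benjamini-Hochberg adjusted over all 5012 genes tested. The error is that between libraries of a genotype, so p-values speak of these 5 strains. FPKM served only for levels between genes. Named genes were called list members besides the *mug* genes, and genes called in all 6 pairs whose libraries did not overlap. The 3 genes on each side of *htb1* and the 3 genes most correlated with *htb1* were also named. Uncalled list members are named where they describe a list, and *mat3-Mc*, *ura4*, *rec10* and *osh3* were singled out after their values were seen.

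On simulated data for the comparison of the sets (4998 genes, 200 changed by 2 on the log2 scale), 99.5% of changed genes were recovered with 1 unchanged gene called, and 88% were called in all 6 pairs. The simulated genotypes of a set shared 1 mean per gene. These rates therefore leave out the spread between genotypes and do not carry over to the real strains. The depth, 18935513 to 27138609 counts per library, leaves genes below 1 CPM on few counts. Replicates of a genotype differed beyond sampling noise in all 15 pairs. Of 5195 identifiers, 5109 matched the ASM294v3 RefSeq gene table, used for names and gene order only. No sequence or coordinate is printed, because the assembly of the authors' genome is not given in the sources used here. Alternatives were DESeq2 1.42.0, limma 3.58.1 with a random block, other scalings and filters, a replicate block, and left-out libraries or genotypes.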

Additional observations from a re-analysis of the deposited data

Results flagged for a closer look

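Within the sets, 5 values stood farther from the rest than the gap test allows at its 95% level, out of the 10 genes looked at (the 9 genes and *htb1*) in 2 sets each; chance alone flags about 1 in 20. The groups mix genotypes, so that rate is only a rough guide. For *mat1-Mc*, *mat3-Mc* and SPAC922.06 all libraries of the set but 1 were at 0, so any count in a single library would have been flagged. In the near-WT set SPAC922.06 was at 0.844 CPM in *htb1-G52D* replicate 1 and at 0 in the other 5 libraries. In the high-*htb1* set *htb1-E112K* replicate 3 was the highest for *mfm2* (0.816 CPM, next 0.375) and for SPBC23G7.10c (3.67 CPM, next 2.15), and it held the 1 count of *mat1-Mc* (0.0371 CPM). The 1 count of *mat3-Mc* (0.0321 CPM) was in *htb1-E112K* replicate 1.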

How the results depend on the processing

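Counts are given as genes higher, then lower, in the high-*htb1* set. DESeq2, TMM over 15 libraries and no low-count filter left all 4 main counts within 1.5 times. With adjusted p alone, 432 and 590 genes were called, 7 and 14 of them in every pair. With at least 10 counts in every library the numbers were 54 and 75, with 1 and 1 in every pair, and total-count scaling left 1 and 3 in every pair. Ignoring genotype gave 42 and 47, and limma with a random block 1 and 1. Without the genotype *htb1-D67N* 68 and 62 were called, without *htb1-E75Q* 174 and 241 (57 and 81 in every pair) and without *htb1-E112K* 47 and 68. Without *htb1-G52D* 18 and 24 were called in every pair, and without *htb1-P102L* 22 and 33. Without the 4 libraries with *mat1-Mc* counts the numbers were 46 and 68, with 2 and 0 in every pair, and without the 2 with *ura4* counts 4 and 2 in every pair. Without replicate 3 of *htb1-G52D* and *htb1-P102L*, an alternative chosen after seeing the data, 3 and 4 were. With *htb1-E34K* among the near-WT mutants 0 and 0 were. Leaving out 1 library at a time gave 87 to 104 and 99 to 120 genes, and in every pair 3 to 5 and 2 to 6.

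With genotype as the replicate the main counts of 0 and 4 became 6 and 10 with DESeq2, 19 and 35 without *htb1-E75Q* and 1 and 0 with *htb1-E34K* added. The 4 became 0 with at least 10 counts per sum and 1 without *htb1-D67N*, without *htb1-G52D* or without *htb1-P102L*. The cause of these shifts was not tested.

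With the replicate block 93 and 106 genes were called, 4 and 4 in every pair. The numbers share no stated batch, and the deviations of same-numbered libraries from their genotype means had correlations from -0.682 to 0.353 (median -0.031), so they were not taken as pairs.

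Changes of sign were those of *mfm2* (0.54 without the libraries with *mat1-Mc* counts) and of neighbours of *htb1* that were not called. They were *hta1* (-0.13 without *htb1-D67N*, -0.059 without *htb1-G52D*), *gdh1* (0.060 without *htb1-E112K*) and SPCC622.07 (-0.0098 without *htb1-E112K*, -0.36 without *htb1-P102L*, -0.27 with *htb1-E34K*). SPCC622.06c turned to 0.028 with DESeq2, 0.14 without *htb1-E75Q*, 0.51 without the *ura4* libraries, 0.52 without those with *mat1-Mc* counts and 0.038 without replicate 3 of both near-WT mutants, and ranged from -1.95 to 0.71 over left-out libraries. Genes below 1 CPM, with few counts each, limit what these fits can show.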
